A study of Mus musculus with 4 samples.

Results

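The genes that encode the proteins of the cytosolic ribosome were followed in tdTomato+ neurons made from mouse embryonic stem (ES) cells. Members were chosen by symbol alone: Rps or Rpl followed by a number and its usual suffixes, together with Rpsa, Rplp0, Rplp1 and Rplp2, without S6 kinase genes and without symbols marked as pseudogenes. Of the 34968 gene symbols shared by all libraries, 89 met this rule, 36 for the small subunit and 53 for the large subunit. GENCODE M21, an annotation of GRCm38, lists 83 of them as protein coding and 6 as pseudogenes (Rpl32l, Rpl6l, Rps12l1, Rps3a2, Rps3a3 and Rps4l), and they lie on 19 chromosomes. The study compared 2 clonal lines by bulk RNA-seq on day 12 of differentiation, with 2 libraries per line. Both lines come from a Dlx6-Cre; Ai9 parental ES line of C57/BL6 background, in which cells that have expressed Dlx6-Cre turn on tdTomato. In the N/D line, a Nestin-driven transgene expresses Nkx2-1 and the tTA activator, which in turn drives Dlx2 from a TRE element. The N/D/S line is built in the same way, except that its TRE element drives Dlx2 together with V5-tagged St18. Both were grown as embryoid bodies with XAV-939 and SAG, and tdTomato+ cells were sorted, so that the libraries describe sorted reporter-positive cells and each group is a clonal line.

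A ribosome is built from ribosomal RNA and a fixed set of proteins, each present once per particle except for the stalk proteins, so their mRNAs are abundant in growing cells and tend to be made in proportion. Many of these mRNAs begin with a run of pyrimidines, the 5′ terminal oligopyrimidine (TOP) tract, through which the mTOR pathway and Larp1 control their translation. Their spliced mRNAs have also been copied back into the genome many times, and the resulting processed pseudogenes can share long stretches with the parent gene.

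Abundances are in TPM, a value per unit of transcript length that sums to the same total in each library and keeps no read number. The depth behind each value is therefore unknown, and no counting interval is given. The induced gene St18 did not separate the lines. Its level was 44.4 and 15.9 TPM in replicates 1 and 2 labelled N/D/S, against 28.5 and 26.6 TPM in those labelled N/D, and libraries are called by their labels throughout. The library labelled N/D replicate 1 stood apart, with 13426 genes above 0 against 17118 to 20750 in the others. It listed 613 of 6139 genes at 0 that had 10 TPM or more in every other library, and the same count gave at most 2 elsewhere. Neuronal markers were present in all libraries (Tubb3 1509 to 2774 TPM, Stmn2 606 to 1631 TPM), as were the ganglionic eminence genes Dlx5 and Lhx6. Nothing in the labels says whether the replicates were separate cultures, so any p-value measures only the spread between these libraries, which may be technical.

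Ribosomal protein mRNAs took up a large and very unequal part of the libraries. Their summed level was 82017 and 51963 TPM in N/D replicates 1 and 2, and 50863 and 88057 TPM in the N/D/S replicates. Each line thus had a library with more than 8% of all TPM in these genes (8.20% and 8.81%) and a library with little over 5% (5.20% and 5.09%). The lines overlapped fully, with a mean of 66990 ± 21251 TPM for N/D and 69460 ± 26300 TPM for N/D/S (SD, n = 2 each), a ratio of 1.04. The highest sum was 1.73 times the lowest as deposited, 2.78 times under median-of-ratios scaling and 3.75 times under upper quartile scaling, and the ratio of the lines turned to 0.884 under the latter. With 2 libraries a line, an exact two-sided permutation test cannot give a p below 0.333.

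**Figure D1:**
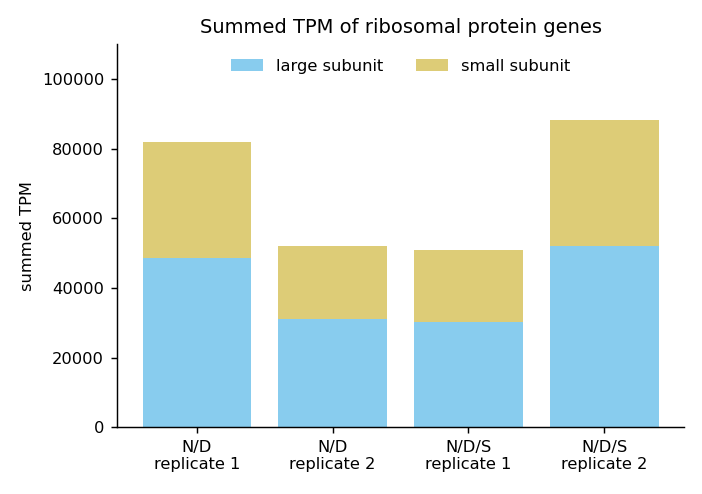
Summed TPM (axis from 0) of the large subunit genes and the small subunit genes in each of the 4 libraries. Both parts are high in N/D replicate 1 and N/D/S replicate 2 and low in the other libraries, and the small subunit holds 40.3% to 40.9% of each bar.

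The balance between the subunits shifted only slightly with the sum. The small subunit genes held 40.8% and 40.3% of it in N/D replicates 1 and 2, and 40.5% and 40.9% of it in the N/D/S replicates. The share was higher in the pair of libraries with the high sum, by less than 1 percentage point, while the sum itself moved by 1.73-fold. A further 5 genes for ribosomal or ribosome-bound proteins, whose names fall outside the symbol rule, summed to 3915 and 2674 TPM in N/D and to 2450 and 4481 TPM in N/D/S. They include Fau, Rpl36al, Rps27rt and the ribosome-bound scaffold Rack1. Rack1 had 1098 and 544 TPM in N/D and 550 and 1044 TPM in N/D/S, high in the same pair of libraries as the members. Rpl36al, in contrast, had 625, 764, 573 and 739 TPM, and was higher in replicate 2 of either line.

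The 10 members of highest mean TPM supplied between 30.6% and 36.2% of the summed level in a library. Among them, Rpl41, which encodes one of the smallest known eukaryotic proteins, had 2846 and 1811 TPM in N/D and 1557 and 4154 TPM in N/D/S, a mean of 2592 TPM. The 10 also included Rpl13, Rps27, Rpl36, Rps29, Rps14, Rpl38, Rpl23a and Rpl37a, with means from 1710 to 2486 TPM. All 10 were higher in N/D replicate 1 than in N/D replicate 2 and higher in N/D/S replicate 2 than in N/D/S replicate 1. For Rps14, a protein at the decoding platform of the small subunit, the values were 2348 and 1072 TPM in N/D and 1141 and 3370 TPM in N/D/S, so that each line held a high and a low value.

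**Figure D2:**
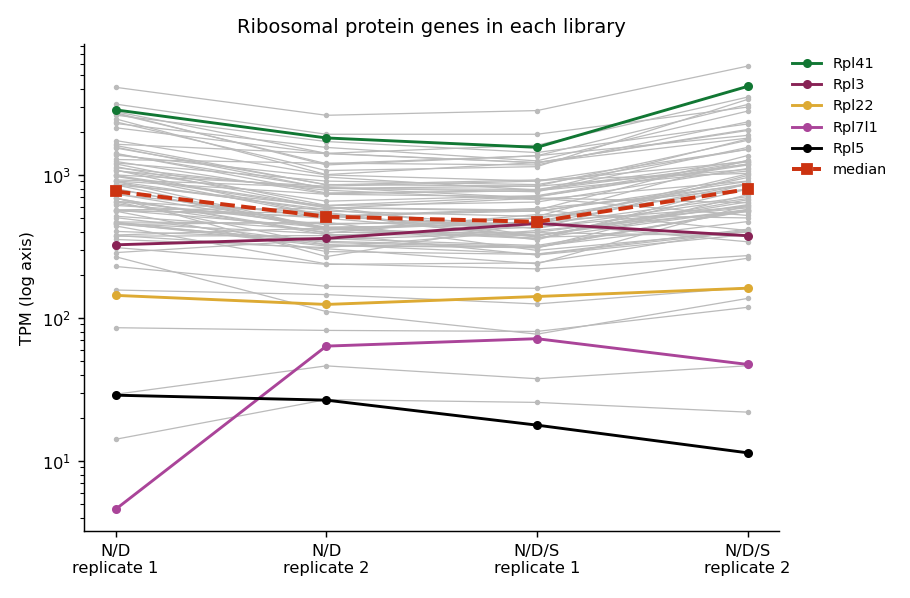
TPM (log axis) of each of the 82 tested ribosomal protein genes in the 4 libraries, 1 grey line per gene, with 5 genes in colour and the median as a dashed line. Most lines are high in N/D replicate 1 and N/D/S replicate 2 and low in between, while Rpl3, Rpl5 and Rpl7l1 follow other courses.

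Of the 89 genes, 21 had a mean of at least 1000 TPM and 77 a mean of at least 100 TPM, and 76 reached 100 TPM in every library. A filter of at least 1 TPM in at least 2 libraries kept 82 of them, 34 for the small and 48 for the large subunit, among 12975 genes in all. The 7 that did not pass were Rpl10l, Rpl32l, Rpl39l, Rpl3l, Rpl6l, Rps3a2 and Rps3a3, and none of these exceeded 2.65 TPM in any library. The number listed at 0 was 3 in N/D replicate 1 and 2 in each of the other libraries, always among Rpl10l, Rpl39l, Rpl3l, Rps3a2 and Rps3a3. Just 5 genes passed the filter with a mean under 100 TPM, and they were named after their values were seen: Rpl27a at 91.4 TPM, Rpl7l1 at 46.7, Rps12 at 39.8, Rpl12 at 22.1 and Rpl5 at 21.1. Of these, Rpl27a, Rps12, Rpl12 and Rpl5 share sequence with copies listed at a higher level, given below.

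Between the lines, none of the 82 genes passed the test. The comparison asks whether these mRNAs had another level under the N/D/S label than under the N/D label, a contrast that St18 itself did not follow (log2 fold change −0.04). Differences were fitted with limma on log2(TPM + 1) over all 12975 genes with Benjamini-Hochberg adjustment, and log2 fold changes are N/D/S minus N/D on that scale. At an adjusted p under 0.05, limma called 0 of the 82 members, and 0.0% of all genes tested. Without adjustment, 0 members and 8 genes (0.0617% of those tested, 3 higher and 5 lower in N/D/S) had a p under 0.05. The lowest unadjusted p of a member was 0.263, and its adjusted p in limma was 1.00, as for all other genes.

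The fitted differences were small beside their errors. The median log2 fold change of the members was 0.01, with 44 of 82 above 0, against a median of 0.26 over all genes tested and −0.06 (764 of 1699 above 0) over other genes of at least 100 TPM. By subunit, the medians were 0.04 for 34 small subunit genes and −0.01 for 48 large subunit genes. For 74 of the 82 the lines lay within 0.5 log2 units of each other, and for 81 within 1 log2 unit. In 81 of 82 the fold change was smaller than its standard error (SE), which ranged from 0.96 to 1.35 with a median of 0.99. These errors are moderated by limma toward the spread of all 12975 genes. The members' own residual SD had a median of 0.49 and a range from 0.10 (Rpl7) to 1.79 (Rpl7l1). The median over members fell to −0.20, with 17 of 82 above 0, under upper quartile scaling, and it changed with each library left out. Leaving out N/D replicate 1, the library with many genes at 0, gave 0.31 (67 of 82 above 0), and leaving out N/D replicate 2 gave −0.30 (20 of 82). For N/D/S the values were 0.31 (66 of 82) when replicate 1 was omitted and −0.34 (12 of 82) when replicate 2 was.

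**Figure D3:**
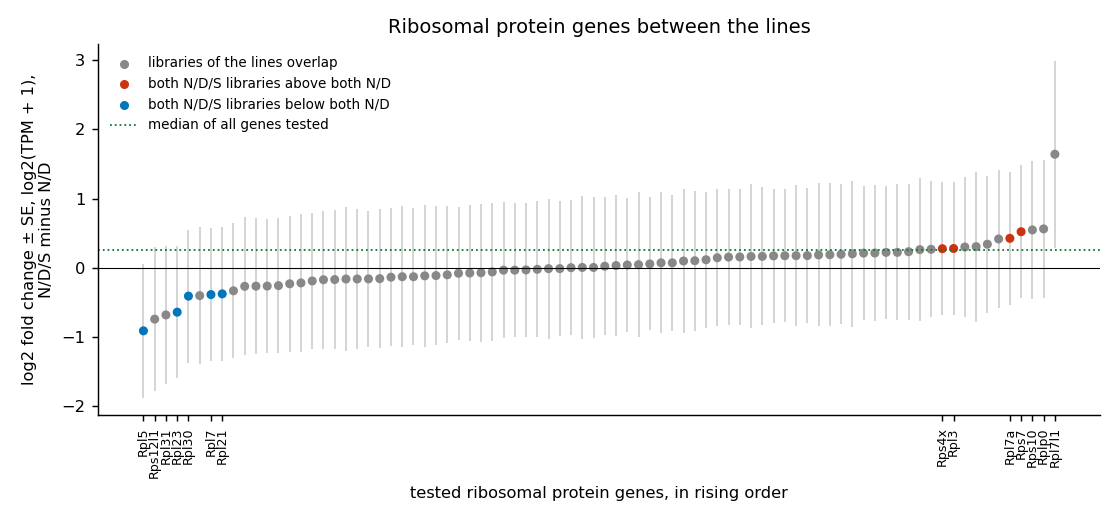
Log2 fold change (N/D/S minus N/D, on log2(TPM + 1)) of each of the 82 tested ribosomal protein genes with its SE, in rising order, with the genes whose fold changes are given in the text named and all coloured by whether the libraries of the lines overlap. All error bars but that of Rpl7l1 cross 0, and the dotted line marks the median of all genes tested, 0.26.

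Rpl7l1, a nucleolar relative of Rpl7, had the largest fold change, 1.64 (SE 1.35). It had 4.58 TPM in N/D replicate 1 but 63.4 TPM in N/D replicate 2, and 71.5 and 47.2 TPM in the N/D/S replicates. The difference rested on the low value in N/D replicate 1, without which the fold change was −0.12. Without N/D replicate 2 it was 3.40 and the only call among the members, in a fit that assumes the lone N/D library to vary like the others. Next came Rplp0 at 0.56 (SE 1.00) and Rps10 at 0.55 (SE 1.00), each with a single high library, N/D/S replicate 2. Rplp0 had 468 and 457 TPM in N/D and 461 and 1015 TPM in N/D/S, and without that last library its fold change was −0.01. Rps10 had 513 and 410 TPM in N/D and 470 and 957 TPM in N/D/S, and its fold change was 0.03 if that last library was omitted and 1.06 if the other N/D/S library was.

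At the other end stood Rpl5, at −0.91 (SE 0.97), with 28.8 and 26.6 TPM in N/D and 17.8 and 11.4 TPM in N/D/S. Rps12l1, an annotated pseudogene without any sequence of its own, followed at −0.74 (SE 1.04), with 267 and 111 TPM in N/D and 76.9 and 137 TPM in N/D/S. Rpl31 was at −0.68 (SE 0.99), with 990 and 602 TPM in N/D and 374 and 618 TPM in N/D/S. In Rpl31 and Rps12l1 the lines overlapped, since N/D/S replicate 2 lay above N/D replicate 2. In Rpl5 they did not. With a library left out, the fold change of Rps12l1 ran from −1.37 (no N/D replicate 2) to −0.11 (no N/D replicate 1). That of Rpl31 ran from −1.04 to −0.32 and that of Rpl5 from −1.21 to −0.61, the extremes coming without the N/D/S libraries.

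The libraries of the lines were separate for 9 of the 82 members. Both N/D/S libraries lay above both N/D libraries for 4 of them (Rps7, Rpl7a, Rps4x and Rpl3), beside 8.69% of all genes tested. Both lay below for 5 (Rpl5, Rpl23, Rpl7, Rpl30 and Rpl21), beside 8.23% of all genes tested. Neither count exceeded the share over all genes, and both depended on scaling, at 1 and 1 under median-of-ratios scaling (12.2% and 9.50% of all genes) or upper quartile scaling (12.0% and 9.71%), and 9 and 9 under quantile normalization (12.1% and 12.2%). They also depended on each library: leaving out replicate 1 of N/D gave 32 higher and 6 lower members, beside 13.3% and 31.9% of all genes, and leaving out its replicate 2 gave 7 and 34, beside 56.8% and 22.9%. For N/D/S, the counts were 45 and 7 without replicate 1, beside 19.3% and 31.1% of all genes, and 6 and 45 without replicate 2, beside 42.8% and 13.6%. Rps7, needed for processing of small subunit RNA, had 353 and 310 TPM in N/D and 408 and 553 TPM in N/D/S, a log2 fold change of 0.52 (SE 0.96). With the pseudogenes most like it added, an alternative chosen after seeing the data, Rps7 had 999 and 644 TPM in N/D. It then had 825 and 1191 TPM in N/D/S, so the lines overlapped. Rpl7a had 373 and 376 TPM in N/D and 431 and 588 TPM in N/D/S, a log2 fold change of 0.43 (SE 0.96).

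Rpl3, which reaches toward the peptidyl transferase centre, had 324 and 360 TPM in N/D and 457 and 375 TPM in N/D/S. Rps4x, the X-linked small subunit gene, had 286 and 352 TPM in N/D and 394 and 375 TPM in N/D/S. Both had a fold change of 0.28 (SE 0.96). Of the genes lower in N/D/S, Rpl23 had the widest difference after Rpl5, with 650 and 545 TPM in N/D and 367 and 396 TPM in N/D/S, a log2 fold change of −0.64 (SE 0.96). Rpl7 had 922 and 816 TPM against 689 and 638 TPM, Rpl30 had 450 and 466 against 296 and 401 TPM, and Rpl21 had 458 and 388 against 275 and 382 TPM. Their log2 fold changes were −0.39, −0.41 and −0.38, each with an SE of 0.96. For Rpl21 the lines were only just apart, by 388 against 382 TPM. With its pseudogenes added, Rpl21 had 474 and 491 TPM in N/D and 301 and 476 TPM in N/D/S, and the lines overlapped. Apart from Rps7 and Rpl21, the separate members stayed separate under that addition. With a library left out, which cannot turn the sign of genes chosen as separate, these fold changes ranged from 0.13 (Rps4x) to 0.74 (Rps7) among the genes higher in N/D/S and, leaving Rpl5 aside, from −0.77 (Rpl23) to −0.14 (Rpl21) among those lower.

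Within each line, almost all members moved together between the replicates. In N/D, replicate 1 was above replicate 2 for 73 of 82 members (89.0%), with a median difference of 0.55 on log2(TPM + 1). In N/D/S, replicate 2 was above replicate 1 for 72 of 82 (87.8%), with a median of 0.67. Over all genes tested the same differences went the other way, with medians of −1.19 and −0.69 and 27.9% and 26.8% of genes above 0. These are comparisons of 1 library with 1 library and have no replicate check. Small subunit genes moved by 0.59 and 0.74, and large subunit genes by 0.52 and 0.61. Comparing libraries of like level across the lines, the members' median difference was −0.04 for N/D/S replicate 1 minus N/D replicate 2 and 0.15 for N/D/S replicate 2 minus N/D replicate 1. These pairs were matched on the members' own level, which made a small difference likely in advance, so the values say nothing about the lines.

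The exceptions were named after their values were seen. In N/D, 9 members were not higher in replicate 1: Rpl12, Rpl3, Rpl30, Rpl34, Rpl7a, Rpl7l1, Rps12, Rps3a1 and Rps4x. In N/D/S, 10 were not higher in replicate 2: Rpl12, Rpl3, Rpl4, Rpl5, Rpl6, Rpl7, Rpl7l1, Rps3a1, Rps4l and Rps4x. Both groups held Rpl12, Rpl3, Rpl7l1, Rps3a1 and Rps4x, 5 genes that went against the common course in either line. Rps3a1, a small subunit protein, had 569.7 and 581 TPM in N/D and 688 and 520.02 TPM in N/D/S, and was thus highest where the members' sum was lowest. Rpl4, a large subunit protein that lines the exit tunnel, had 729 and 508 TPM in N/D and 572 and 408 TPM in N/D/S.

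The size of this movement differed with transcript length in the other genes and, within N/D, in the members. Ribosomal protein genes are short: the longest annotated transcript had a median of 1076 bases (range 383 to 5179), against 3286 bases for all genes tested. Other genes of at least 100 TPM moved by 0.35 in N/D and 0.58 in N/D/S when their longest transcript was under 1 kb, by 0.01 and 0.15 from 1 to 2 kb, and by −0.28 and −0.46 from 2 to 4 kb. Members moved by 0.66 and 0.74 under 1 kb, by 0.53 and 0.62 from 1 to 2 kb, and by 0.30 and 0.69 from 2 to 4 kb, where there were 12 of them. Above 4 kb the other genes were at −0.20 and −0.82, and the members, 2 genes only, at 0.55 and 0.64. Abundant short genes of other kinds thus shared the direction. The part of transcript length in the members' difference was not tested.

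**Figure D4:**
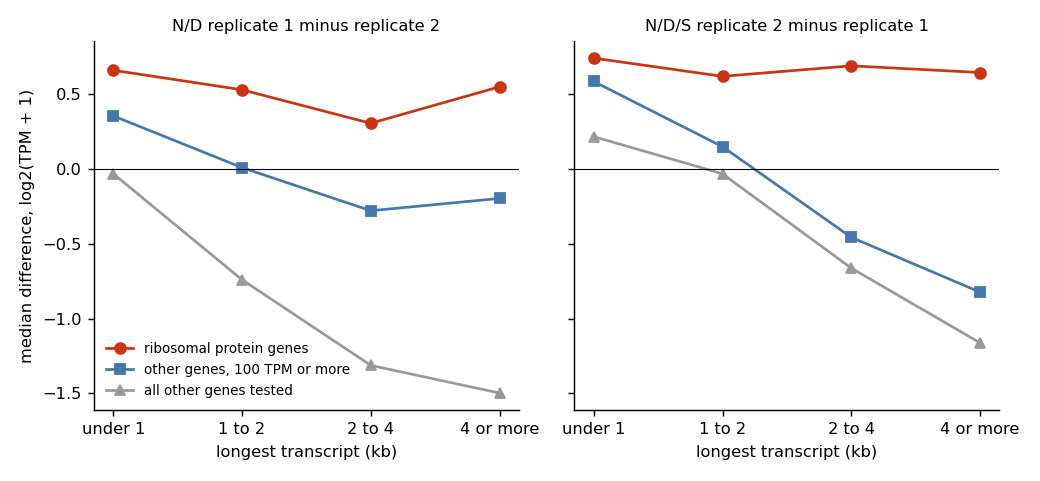
Median difference in log2(TPM + 1) between the replicates of a line, by the length of the longest annotated transcript (kb), for ribosomal protein genes, for other genes of at least 100 TPM and for all other genes tested. The members stay between 0.30 and 0.74 in every length class (2 genes in the longest), while the medians of the other genes fall to −0.20 or lower from 2 kb upward.

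Other features of the libraries moved with the members' level. The 100 most abundant genes held 31.03% and 33.29% of TPM in the libraries with high ribosomal protein levels, N/D replicate 1 and N/D/S replicate 2, and 25.47% and 24.72% in the others. They included 17 and 19 ribosomal protein genes in the first pair, and 11 and 13 in the second. The number of genes above 0 was lower in the first pair (13426 and 17118) than in the second (20107 and 20750). Summed TPM of the 10 ganglionic eminence and GABAergic markers was also lower there, at 655 and 666 TPM against 1384 and 1619 TPM, and none of these markers was at 0 in any library. The 8 neuronal markers summed to 4507 and 3311 TPM in N/D and 5087 and 3369 TPM in N/D/S, sums carried by Tubb3 and Stmn2. Gene by gene, 0 of the 8 were higher in N/D/S replicate 2 than in N/D/S replicate 1, with a median difference of −1.40 on log2(TPM + 1) (Dcx 17.9 against 122 TPM, Map2 80.5 against 361 TPM), and 4 of 8 were higher in N/D replicate 1 than in N/D replicate 2. The 8 markers of progenitors and cycling cells summed to 303 and 368 TPM in N/D and 351 and 220 TPM in N/D/S. Markers of other cells did not follow the members' level. The 6 pluripotency markers summed to 0.247 and 195 TPM in N/D replicates 1 and 2 and 3.66 and 328 TPM in N/D/S replicates 1 and 2, with Dppa5a at 164 and 266 TPM in the replicate 2 libraries. Pou5f1 was at 7.55 and 19.5 TPM there and at 0 in N/D replicate 1. The 7 glial markers summed to 145 TPM in N/D replicate 2, 17.4 and 50.6 TPM in N/D/S, and were all at 0 in N/D replicate 1. The 8 mesenchymal and blood markers summed to 38.8, 53.1, 12.5 and 47.0 TPM in the order of N/D and then N/D/S replicates. The part of these features in the members' levels was not tested, and in sorted bulk RNA fewer cells of a type and less RNA per cell cannot be told apart.

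The relative make-up of the ribosomal protein mRNAs was steadier than their sum. When each gene was expressed as a share of the members' sum in its library, the highest share was 1.43 times the lowest in the median member. It stayed under 1.5 times for 47 of 82 and reached 2 times for 13. Rpl13 kept its share within 1.13-fold and Rpl37a within 1.16-fold, whereas Rps14 varied by 1.86-fold and Rplp0 by 2.02-fold. The widest swing was that of Rpl7l1, at 25.1-fold. Across the 82 members (genes, not independent samples), Pearson's r of log2(TPM + 1) between libraries lay from 0.928 to 0.979, and it was lowest in pairs that included N/D replicate 1.

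The 3 stalk proteins, which form the arm that recruits translation factors to the large subunit, did not all follow the same course. Rplp1 had 905 and 732 TPM in N/D and 703 and 1171 TPM in N/D/S. Rplp2 had 899 and 557 TPM in N/D and 512 and 1267 TPM in N/D/S. Both were thus higher in N/D replicate 1 than in N/D replicate 2, whereas Rplp0, the anchor of the stalk, was level in N/D, as given above. Their summed level was 2273, 1746, 1675 and 3453 TPM, highest in N/D/S replicate 2.

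Rpl5 and Rpl11 form the 5S RNP with 5S ribosomal RNA, a particle that can also bind the p53 regulator Mdm2. Rpl11 had 402 and 358 TPM in N/D and 321 and 556 TPM in N/D/S, a mean of 409 TPM against 21.1 TPM for Rpl5, whose protein joins it in the same particle. The sequence of Rpl5 is shared with a copy of the gene, and 49.6% of its stretches of 31 bases are found in no other gene. The copy, Gm15500, is a transcribed processed pseudogene at chr7:114705217-114706235 (GRCm38, minus strand), while Rpl5 lies at chr5:107900502-107909005 (plus strand). Across the 894 bases of the Rpl5 coding sequence, Gm15500 had 0 differences in the GENCODE M21 transcripts. Their first 90 coding bases are shown to make this identity visible, and capitals would mark a difference.
Rpl5: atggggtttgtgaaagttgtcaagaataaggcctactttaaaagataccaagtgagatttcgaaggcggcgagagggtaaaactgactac
Gm15500: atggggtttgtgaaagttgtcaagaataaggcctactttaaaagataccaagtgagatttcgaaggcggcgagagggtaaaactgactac
Gm15500 was listed at 550 and 418 TPM in N/D and 338 and 323 TPM in N/D/S. Summing Rpl5 and the pseudogenes most like it gave 579 and 445 TPM in N/D and 356 and 334 TPM in N/D/S, lower in both N/D/S libraries. How reads were divided between Rpl5 and its copy was not tested.

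Such sharing was general. Counting stretches of 31 bases, the unit that kallisto matches by default, a median of 72.1% of a member's stretches were found in no other gene of GENCODE M21. In 14 members, 10 of them tested, fewer than 50% were unique, and in 11 at least 90%. Rpl36, among the 10 most abundant, had 5.95% unique stretches, Rpl35 11.2%, Rpl23a 17.0%, Rps3a1 23.1% and Rps12l1 none, all of its stretches lying in Rps12. For Rpl23a and Rpl35 the gene sharing most was not a pseudogene but Tlcd1 and Wdr38, respectively. In all, 284 pseudogenes had at least 50% of their stretches in members, and their summed TPM, which is not part of the members' sum, came to 13.4% to 13.9% of that sum in size in each library. The 297 Rps and Rpl symbols marked -ps, 37 of them tested, summed to 7655 and 4551 TPM in N/D and 4565 and 8141 TPM in N/D/S.

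The most abundant of these pseudogenes was Rpl27-ps3, all of whose stretches lie in Rpl27. It was listed at 2345 and 1304 TPM in N/D and 1364 and 2427 TPM in N/D/S, above Rpl27 itself (629 and 396 TPM in N/D, 396 and 610 TPM in N/D/S). Both were high in the same libraries. Rps23-ps1, all of whose stretches lie in Rps23, had 1319, 576, 660 and 859 TPM against 439, 238, 220 and 272 TPM for Rps23. Rpl12 also stood low, at 14.1 and 26.8 TPM in N/D and 25.6 and 21.9 TPM in N/D/S, and reached 306 and 289 TPM in N/D and 236 and 327 TPM in N/D/S once its pseudogenes were added. Rpl27a had 85.3 and 81.7 TPM in N/D and 80.3 and 118 TPM in N/D/S. With its pseudogenes it reached 442 and 377 TPM in N/D and 394 and 696 TPM in N/D/S. Rps12 had 29.2 and 46.1 TPM in N/D and 37.5 and 46.2 TPM in N/D/S, below Rps12l1 in each library. How the reads were divided between genes and copies was not tested. As an alternative chosen after seeing the data, each such pseudogene was added to the member sharing most of its stretches. For the Rps12 pseudogenes that member was Rps12l1 and for Gm13408 it was Rps3a2, both annotated pseudogenes, so Rps12 itself did not change. The median log2 fold change was then 0.04 and the summed level kept the same pair of high libraries.

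Paralogs of ribosomal proteins were read beside their partner genes. Rpl22l1 was above Rpl22 in every library, with 468 and 324 TPM in N/D and 280 and 417 TPM in N/D/S, against 144 and 124 TPM and 141 and 161 TPM for Rpl22. The ratio was 3.26 and 2.62 in N/D and 1.98 and 2.59 in N/D/S. The ratios of the lines did not overlap, by 2.62 against 2.59, and on the log2 scale, with 1 TPM added to each gene, the lines differed by −0.36 with a pooled SD of 0.25. With a library left out, that difference ranged from −0.17 without N/D/S replicate 1 to −0.56 without N/D/S replicate 2. In Rpl22, 93.2% of the stretches of 31 bases were unique, and in Rpl22l1 82.6%.

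Rps27l, a p53-responsive paralog of Rps27, was below its partner in every library. It had 559 and 539 TPM in N/D and 350 and 866 TPM in N/D/S, against 2768 and 1414 TPM in N/D and 1612 and 3495 TPM in N/D/S for Rps27. The ratio was 0.202 and 0.381 in N/D and 0.217 and 0.248 in N/D/S. Their coding sequences, both of 255 bases, are printed because they show where reads can tell the paralogs apart. They differ at 61 positions, in capitals, and are 76.1% identical. Rps27 lies at chr3:90212522-90213651 (minus strand) and Rps27l at chr9:66946086-66949516 (plus strand) on GRCm38.
Rps27: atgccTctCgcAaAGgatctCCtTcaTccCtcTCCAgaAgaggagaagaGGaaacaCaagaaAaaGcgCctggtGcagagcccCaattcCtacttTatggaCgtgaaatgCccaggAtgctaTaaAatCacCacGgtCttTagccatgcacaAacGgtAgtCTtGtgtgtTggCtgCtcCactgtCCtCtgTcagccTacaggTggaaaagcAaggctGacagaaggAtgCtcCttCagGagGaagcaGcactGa
Rps27l: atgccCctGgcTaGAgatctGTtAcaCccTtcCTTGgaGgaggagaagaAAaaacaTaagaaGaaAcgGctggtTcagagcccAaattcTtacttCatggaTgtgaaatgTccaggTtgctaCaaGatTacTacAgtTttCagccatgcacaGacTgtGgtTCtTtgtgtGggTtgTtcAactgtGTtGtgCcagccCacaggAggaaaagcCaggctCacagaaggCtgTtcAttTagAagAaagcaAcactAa

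Rps4l, annotated as a pseudogene, had 689 and 268 TPM in N/D and 462 and 340 TPM in N/D/S. Its ratio to Rps4x was 2.41 and 0.762 in N/D and 1.17 and 0.909 in N/D/S, so it lay on either side of its partner within each line. Rpl7l1 had between 0.00497 and 0.104 of the TPM of Rpl7, and that range was set by N/D replicate 1. Rpl3l, known from heart and skeletal muscle, and Rpl10l and Rpl39l, known from the testis, were at or near 0. Rpl3l did not exceed 0.20 TPM, Rpl10l had 2.11 TPM in N/D/S replicate 2 and 0.61 TPM in N/D replicate 2, and Rpl39l had 2.65 TPM in N/D replicate 2 and was listed at 0 elsewhere.

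**Figure D5:**
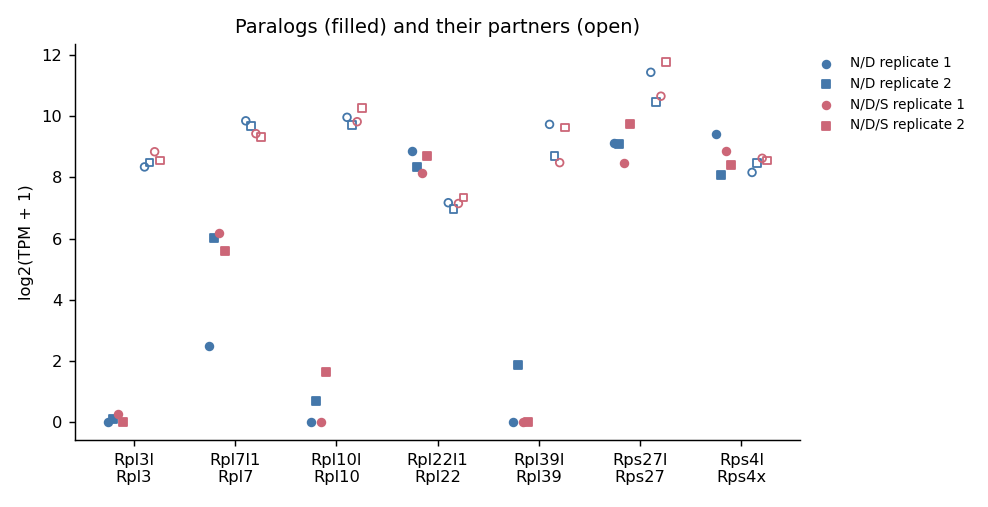
Log2(TPM + 1) of 7 paralogs (filled) and their partner genes (open) in each library, coloured by line and shaped by replicate. Rpl22l1 lies above Rpl22 in all 4 libraries, Rps27l below Rps27 in all 4, and Rpl3l, Rpl10l and Rpl39l stay near 0.

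Genes in which human variants cause Diamond-Blackfan anaemia, an inherited failure of red cell production, spanned much of the range of fold changes, from Rpl5 to Rps10. Of the 11 on this list, 6 had a fold change above 0 and none passed the test, with a median of 0.00. Apart from Rpl5 and Rpl11, they had means between 406 TPM (Rps7) and 1287 TPM (Rpl26). Rps19, the most often affected gene, had 1540 and 856 TPM in N/D and 835 and 1743 TPM in N/D/S. Rps26 had 735, 422, 373 and 669 TPM and Rps24 had 1122, 781, 671 and 904 TPM in the order N/D replicates 1 and 2 and N/D/S replicates 1 and 2. Each was higher in the same pair of libraries as the sum. Rpl15 had a mean of 719.7 TPM and Rpl35a one of 546 TPM.

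Of the proteins with roles beyond the ribosome's core, Rps6 is the substrate of S6 kinase, Rps27a is made as a fusion with ubiquitin, and Rpsa was first known as a laminin receptor. Rps6 had 1604 and 851 TPM in N/D and 922 and 1025 TPM in N/D/S. Rps27a had 1374 and 966 TPM in N/D and 783 and 1185 TPM in N/D/S, and Rpsa had 654 and 448 TPM in N/D and 497 and 793 TPM in N/D/S. All were higher in N/D replicate 1 and N/D/S replicate 2 than in the other library of the line, Rps6 least so in N/D/S.

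The start sites of the members carried pyrimidine runs more often than those of other genes. RefSeq windows of GRCm38.p6, from 250 bases before to 50 bases after the annotated start, were found for 64 members, 76 windows in all. A C at the start followed by at least 4 bases that are each C or T stood in 14 of 76 windows (18.4%), against 2.51% of all 32851 windows. A C followed by 6 such bases anywhere from 20 bases before to 30 bases after the start stood in 53.9%, against 22.2%. Searched on both strands of the whole window, the ETS-like CCGGAAGT was in 15.8% against 3.89%, AAGATGG, the core of a YY1 element, in 15.8% against 6.34%, GGGCGG in 59.2% against 35.7%, and TATAAA in 10.5% against 13.6%. A match is a description of the letters and not of a bound site, and the annotated start may differ from the start used in these cells.

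The windows of 8 members are shown, 7 with a run at the annotated start and the paralog Rps27l, which has none. Each line gives the 15 bases before and the 15 bases from the start, 5′ to 3′ on the gene's strand, with the run in capitals.
Rps6, chr4:86857353-86857382, minus strand: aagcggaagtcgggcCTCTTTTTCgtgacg
Rps27, chr3:90213634-90213663, minus strand: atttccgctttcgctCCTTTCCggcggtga
Rps10, chr17:27635230-27635259, minus strand: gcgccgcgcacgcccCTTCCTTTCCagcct
Rplp2, chr7:141447636-141447665, plus strand: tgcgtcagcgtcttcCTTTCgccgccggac
Rpl35a, chr16:33056467-33056496, plus strand: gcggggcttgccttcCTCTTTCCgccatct
Rpl15, chr14:18270972-18271001, minus strand: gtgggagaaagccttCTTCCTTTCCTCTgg
Rpl38, chr11:114668565-114668594, plus strand: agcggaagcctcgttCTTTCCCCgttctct
Rps27l, chr9:66946071-66946100, plus strand: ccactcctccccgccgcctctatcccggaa
The runs shown are from 5 to 13 bases long. Among tested members, the 13 with such a run moved by a median of 0.69 within N/D and 0.86 within N/D/S, and the 47 with a window but no run by 0.53 and 0.65. Between the lines their median log2 fold changes were 0.00 and 0.06.

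Other parts of the translation machinery differed less between the libraries, or in the other direction. Of a list of 9 genes, elongation factors and the translation-associated Tpt1, 6 had a fold change above 0 and none passed the test. Their median log2 fold change was 0.53, above the 0.26 of all genes tested, with a range from −0.49 to 1.30. Eef1a1, which delivers aminoacyl-tRNA, had 1817 and 1593 TPM in N/D and 2092 and 1184 TPM in N/D/S, and Eif5a 1538, 1330, 1384 and 1532 TPM in the same order. Eef1a2, the isoform of mature neurons and muscle, had 0.39 and 8.54 TPM in N/D and 3.74 and 16.02 TPM in N/D/S. Tpt1, a TOP mRNA, had 944 and 714 TPM in N/D and 606 and 561 TPM in N/D/S. Within N/D the median difference of this list was −0.31, and within N/D/S 0.09, against 0.55 and 0.67 for the members.

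Of 39 initiation factor genes, none passed the test, and 18 had a fold change above 0 with a median of −0.05. Eif1 had 2076 and 2446 TPM in N/D and 1906 and 1867 TPM in N/D/S, and Eif4a1, the helicase of the cap-binding complex, had 536 and 810 TPM in N/D and 921 and 441 TPM in N/D/S. Eif2b2 was listed at 0 in N/D replicate 1 and lay between 96.8 and 139 TPM elsewhere. Eif5b, which joins the subunits, had 23.7 and 23.6 TPM in N/D and 14.3 and 4.67 TPM in N/D/S.

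Of 67 ribosome biogenesis genes, 47 had a fold change above 0 with a median of 0.30, near the 0.26 of all genes tested, and none passed the test. Their within-line medians were −0.89 and −0.64, opposite to the members. Npm1 had 215 and 517 TPM in N/D and 356 and 258 TPM in N/D/S, and Rrp1 had 187, 368, 425 and 247 TPM in that order. Bop1 had 0.02 TPM in N/D replicate 1 and 49.2 to 74.5 TPM in the others, and Ddx18 had 85.6 and 48.8 TPM in N/D and 32.2 and 18.4 TPM in N/D/S. In all, 10 genes of this list were at 0 in N/D replicate 1 and 0 in the other libraries.

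Of 14 tested genes of the TOR pathway and its S6 kinases, 8 had a fold change above 0 and none passed the test. Rheb, the GTPase that activates mTOR, had 229 and 140 TPM in N/D and 103 and 68.5 TPM in N/D/S, a log2 fold change of −1.09 (SE 0.98). Akt1s1 had 44.7 and 67.1 TPM in N/D and 47.9 and 137 TPM in N/D/S. Rps6ka1 was listed at 0 in N/D replicate 1 and lay between 13.5 and 26.1 TPM in the others.

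Mitochondrial ribosomal protein genes, which serve the ribosome of that organelle, offered a comparison with another large set of ribosomal subunits. Their 78 genes summed to 14839 and 11635 TPM in N/D and 10411 and 13872 TPM in N/D/S. The same pair of libraries was high in the sum, while the median difference between replicates was −0.06 in N/D and 0.26 in N/D/S. Their median log2 fold change between the lines was −0.04, and none of them passed the test.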

How the data were processed

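The authors deposited 1 table per library of transcript abundances (TPM) per gene symbol. Per the labels and the study's methods, RNA of sorted tdTomato+ cells was poly-A selected, sequenced as paired ends and pseudoaligned with kallisto 0.44.0 (GRCm38), and the lines were compared in sleuth. The release of the transcriptome and the way transcripts were combined into symbols are not given in the sources used here. Files were joined on symbol, and 24 symbols turned into dates were left out. Sleuth was not used here, since it needs kallisto output other than TPM.

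Differences between the lines were fitted with limma 3.58.1 in R 4.3.3 on log2(TPM + 1), 2 libraries against 2 without covariates, with Benjamini-Hochberg adjustment and a threshold of 0.05. A pseudocount of 1 understates fold changes of low genes. The fit was also run on simulated data, but the outcome is not reported here and none of the results rests on it. Depth is unknown, since TPM keeps no counts. Groups and replicate numbers came from the labels, which do not say that numbers pair libraries. After removing line means, same-numbered libraries correlated at 0.02 over all genes and −0.43 over the members.

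The members and lists were chosen with earlier results of these data known. Genes named were the 10 of highest mean TPM, the 5 largest fold changes in each direction, paralogs and partners, the stalk, 5S RNP and anaemia lists, Rps6, Rps27a and Rpsa, members listed at 0, up to 5 non-overlapping members in each direction, and up to 4 genes of each companion list. Annotation and transcripts came from GENCODE M21 and start windows from RefSeq. Alternatives were pseudocounts of 0.1 and 0.5, other filters and scalings, centring on transcript length, the share of the members' sum, a replicate block, a variance trend, other member definitions, and each library left out in turn. Values of some genes under these rules are not reported here. Adding pseudogenes to the members most like them was chosen after seeing the data. The remaining steps used pandas 2.3.3, numpy 2.4.6 and matplotlib 3.10.9 under Python 3.11.15.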

Additional observations from a re-analysis of the deposited data

How the results depend on the processing

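Of 351 values recomputed under alternatives, 332 kept their direction and their side of the threshold or moved by less than the spread. Fold changes of named genes made up 224 of the 351, and 221 of these held. The other 127 were counts, medians, sums and paralog ratios, of which 111 held and 16 moved. No member passed the threshold in the main fit, so many of the values had little room to change. No alternative that kept all libraries called a member, and limma's variance trend called 6 genes in all, none of them members. With a library left out, where a lone library is assumed to vary like the others, the calls ranged from 0 to 2373 genes and from 0 to 1 members. The largest counts came without N/D replicate 2, which sets N/D replicate 1, with its many genes at 0, alone against N/D/S. The call was Rpl7l1, whose fold change ranged from −0.12 without N/D replicate 1 to 3.40. That of Rplp0 ranged from −0.0073 without N/D/S replicate 2 to 1.13 without N/D/S replicate 1. The counts of separate members, 4 higher and 5 lower, were 1 and 1 under median-of-ratios (12.2% and 9.50% of all genes) and under upper quartile scaling (12.0% and 9.71%), 9 and 9 under quantile normalization (12.1% and 12.2%), and from 6 to 45 in each direction with a library left out, where the shares over all genes ranged from 13.3% to 56.8% higher and from 13.6% to 31.9% lower. The members' median fold change ranged from −0.34 to 0.31 with a library left out, and the log2 ratio of the summed levels from −0.40 to 0.42. The median of all genes shifted from 0.26 to 0.14 under upper quartile scaling, −0.05 under quantile normalization, −0.17 when centred on transcript length and −0.15 with 1 TPM required in every library. The difference in the ratio of Rpl3l to Rpl3, a gene near 0, was −0.20, but 0.10 with a pseudocount of 0.1 and −0.14 with 0.5. Causes of these shifts were not tested. Replicate number as a block changed no call, with 0 members and 0 genes past the threshold and a median of 0.01, and the labels do not state a pairing. Unknown depth limits all values of low genes.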
